A study of Mus musculus with 10 samples.

Results

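The genes followed here are 8 members of the transforming growth factor beta (TGF-beta) pathway: the ligands Tgfb1, Tgfb2 and Tgfb3, the receptors Tgfbr1 and Tgfbr2, and the repressors Ski, Skil and Tgif1. Their open chromatin was read from 4 lists of accessible windows, 1 per treatment, by taking every window whose nearest gene in the authors' annotation is one of the 8. After overlapping windows had been joined across lists, they made up 51 regions of 35534. By list, the 8 genes had 38 of the 26230 windows of untreated cells, 39 of 23288 after TNFa, 38 of 24525 after BMP4 and 36 of 23745 after both. No expression was measured, and a nearest gene need not be the gene that a window acts on.

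The cells were MC3T3-E1, an established mouse osteoblast line, in serum-reduced medium. ATAC-seq, which marks open chromatin by where a transposase can insert, was done on 2 libraries each of untreated cells, cells given TNFa at 10 ng/ml, cells given BMP4 at 10 ng/ml for 3 h, and cells given both. The protocol puts TNFa 30 min ahead of BMP4 while the sample labels give TNFa for 3 h, so its duration is uncertain. The series title concerns BMP signalling, Smad4 and p65 in inflammatory cell death. The TNFa libraries, and no others, have p65 in their titles, with no reason given, so each value for TNFa alone carries that doubt. Separate cultures are not mentioned, and p-values here measure the spread between libraries, which may be technical. An additional 2 libraries of sonicated DNA are the background. Total tags (M; read positions as HOMER counts them) ranged from 16.5 to 30.1, lowest in the 4 libraries given TNFa. The first principal component of the 14416 tested windows held 63.3% of the variance. On it, replicate 2 lay above replicate 1 in every group. Replicate 2 of untreated cells (94.3) and of BMP4 (95.9) stood furthest apart that way, ahead of replicate 2 of TNFa (41.9). Several results of the 8 genes that lean on the first 2 are also given without them. Only replicate 1 then remains without TNFa, against both replicates with it, so such TNFa effects also carry the replicate difference. Windows within 1000 bp of a start were called at 6 or 7 of 13 osteoblast marker genes (Runx2, Col1a1, Col1a2 and Sparc among them), at 0 of 10 haematopoietic markers, 0 of 8 endothelial and muscle markers, 1 of 6 adipocyte markers (Cebpa) and 2 or 3 of 9 chondrocyte markers (Sox6 and Sox9 in every list).

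TGF-beta ligands are secreted in a latent form and stored in matrix, of which bone is a rich source. An active ligand binds Tgfbr2, which phosphorylates Tgfbr1, and Tgfbr1 in turn phosphorylates the receptor-regulated Smads, which enter the nucleus with Smad4, the partner they share with the BMP branch. Ski and Skil (SnoN) bind those Smad complexes and bring in corepressors, Tgif1 is a homeodomain corepressor of the same Smads, and Skil is itself a target of TGF-beta, so that it closes a feedback loop.

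The promoter sequences of the members with an accessible window at the start itself are shown first. The promoter values below describe 125 bp windows that cover only part of these stretches. The RefSeq table (GRCm38.p6, the assembly of mm10) matched 6 of the 8 symbols, all but Tgfb3 and Skil, with 11 promoters, and a called window reached into 3 of them. Each line gives the 250 bases before a start, 5′ to 3′ along the gene, in lower case, with the bases inside the window called in untreated cells in capitals.
Tgfbr1, chr4:47352972-47353221, plus strand: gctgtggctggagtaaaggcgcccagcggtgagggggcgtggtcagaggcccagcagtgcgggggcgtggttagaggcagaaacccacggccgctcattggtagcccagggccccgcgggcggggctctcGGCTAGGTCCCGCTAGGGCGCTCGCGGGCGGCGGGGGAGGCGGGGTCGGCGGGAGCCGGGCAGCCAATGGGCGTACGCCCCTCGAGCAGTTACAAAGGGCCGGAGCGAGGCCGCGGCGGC
Tgfbr2, chr9:116175364-116175613, minus strand: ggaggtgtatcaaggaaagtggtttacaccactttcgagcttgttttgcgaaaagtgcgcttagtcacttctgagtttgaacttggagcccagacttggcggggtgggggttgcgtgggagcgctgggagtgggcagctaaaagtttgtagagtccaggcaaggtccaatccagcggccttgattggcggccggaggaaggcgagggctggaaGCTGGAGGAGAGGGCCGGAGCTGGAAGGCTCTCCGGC
Tgif1, chr17:70851735-70851984, minus strand: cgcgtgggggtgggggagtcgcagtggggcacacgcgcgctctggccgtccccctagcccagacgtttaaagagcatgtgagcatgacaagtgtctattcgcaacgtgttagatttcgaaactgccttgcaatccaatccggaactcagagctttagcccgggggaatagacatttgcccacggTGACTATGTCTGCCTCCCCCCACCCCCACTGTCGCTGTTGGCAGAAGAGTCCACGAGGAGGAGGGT
The capitals cover 120 bases at Tgfbr1, 37 at Tgfbr2 and 66 at Tgif1. The rest of each window lies past the start and is not shown. Between lists these windows moved by up to 57, 40 and 88 bp. GC content was 74.8% at Tgfbr1, 58.4% at Tgfbr2 and 58.8% at Tgif1, against a median of 52.4% over all 32851 promoters of the table, and CpG pairs numbered 29, 12 and 16 against a median of 6. On both strands, with matches of different motifs allowed to overlap, the Tgfbr1 stretch held 2 GC boxes (GGGCGG, 1 of them in the capitals; 32.7% of all promoters hold one), 2 CCAAT boxes (CCAAT, 1 in the capitals; 33.8%) and 1 GC-rich Smad motif (GGCGCC; 9.59%). The Tgfbr2 stretch held 1 Smad-binding CAGAC (42.2% of all promoters) and 2 CCAAT boxes, none in the capitals. The Tgif1 stretch held 2 CAGAC, 1 of them in the capitals, and 1 CCAAT box. The letters of the AP-1 motif (TGANTCA; 6.75%), an NF-kB motif (GGNNTTTCC; 4.93%), the TEAD motif (GGAATG; 12.6%) and the RUNX motif (TGTGGT; 14.0%) are not in these 3 stretches.

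Of the 51 regions, 20 were named for Tgif1, 12 for Tgfb3, 7 for Ski, 4 for Tgfbr2, 3 for Skil, 2 each for Tgfb1 and Tgfbr1, and 1 for Tgfb2. Only 37 of the 12682 genes with a region had as many as Tgif1 (the median was 2). Most of this number lay in neighbouring genes: 16 of the Tgif1 regions were in introns of Dlgap1, 10 of the Tgfb3 regions in introns of Ttll5, and 1 of the Tgfb1 regions at the transcript end of B9d2, 27 of 51 in all. Introns held 72.5% of the members' regions against 33.8% of all regions, and promoters 15.7% against 28.5%. A region was called in all 4 lists in 26 cases, in 3 lists in 7, in 2 lists in 8 and in 1 list in 10, which is 51.0%, 13.7%, 15.7% and 19.6% of the members' regions against 42.5%, 14.4%, 18.7% and 24.3% of all regions.

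Few regions were called in the lists of 1 factor and in no other. The pair of TNFa lists alone shared 1 member region (1.96%, against 4.18% of all regions), and the pair of BMP4 lists alone shared 2 (3.92% against 2.57%). The pair of lists without TNFa alone shared 2 (3.92% against 7.36%), and the pair without BMP4 alone shared 2 (3.92% against 2.84%). Each list is a single call on pooled libraries, so presence has no replicate, and a window left out of a list has no value there. A list without a window could hold another close by. The window 91294 bp downstream of a Tgif1 start was called in all lists but TNFa, whose own window starts 89 bp away, and the window 98966 bp downstream in all but BMP4, whose own window starts 153 bp away and does not overlap it.

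**Figure D1:**
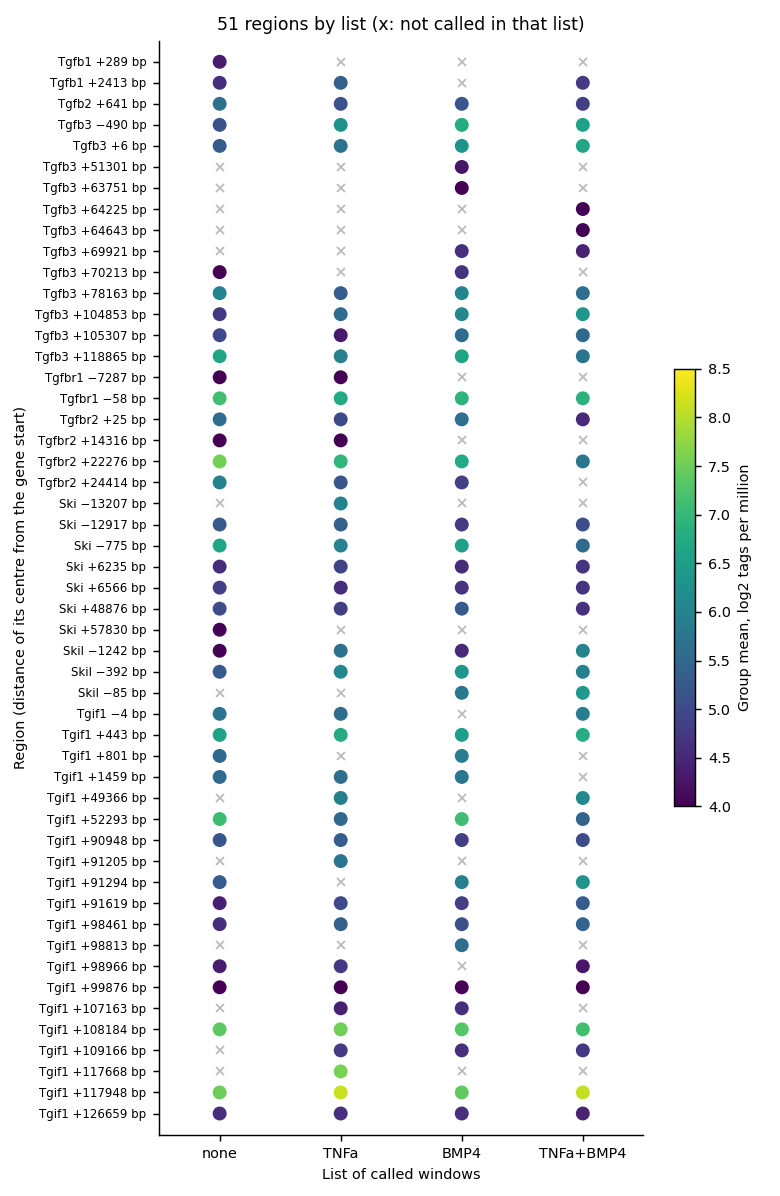
The 51 regions of the 8 genes (rows, named by the distance of the window centre from the nearest start of the gene, in bp) in the 4 lists (columns). Colour is the group mean in log2 CPM (tags per 1000000 tags in tested windows) and a cross means not called in that list; 26 rows are filled in all 4 lists, and the 6 rows 51301 to 70213 bp from Tgfb3 are filled mostly in the BMP4 lists.

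For a comparison of levels, tag counts were recovered from the deposited values and put on 1 scale, tags per 1000000 tags in tested windows (CPM). All windows are 125 bp long, so levels can be set side by side between windows. Of the 26 regions in all 4 lists, 24 overlapped by at least 63 bp throughout, and all 24 were among the 14416 windows tested with limma. Fitted by group alone, no window of the 8 genes or of another gene passed a Benjamini-Hochberg adjusted p of 0.05 (0% of windows called in all 8 comparisons); a fit with the replicate number as a further term, which made calls at other genes but at none of the 8, is given with the alternatives. At an unadjusted p under 0.05, the effect of TNFa over both BMP4 states gave 1 member window higher and 1 lower of 24, against 4.36% of all windows, and the effect of BMP4 over both TNFa states gave 1 higher, against 1.1% (158 windows). Both factors against none gave 1 higher and 1 lower (2.48% of all windows), both against TNFa gave 1 higher (0.257%), and the other comparisons gave none: TNFa against none (1.05%), BMP4 against none (0.194%), both against BMP4 (1.6%) and the interaction, where no window of the 14416 reached that p. The median of the 24 log2 differences was 0.028 for TNFa and −0.044 for BMP4, with 13 and 11 of 24 above 0, against 49.9% and 50.7% of all windows. The libraries of a group differed by a median of 0.72 (log2) in the members' windows and 0.78 in all windows, while the median size of the TNFa effect in the members was 0.44 and of the BMP4 effect 0.23.

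With 2 libraries a group, a pair often lies wholly above or below another pair, so such counts are read against those of all windows. For TNFa against none, 5 member windows were separated upwards and 4 downwards (8.88% and 10.5% of all windows). For BMP4 against none there were 3 and 1 (8.32% and 8.68%), and for both factors against none 10 and 2 (16.8% and 16.5%). For both against TNFa there were 1 and 2 (8.38% and 8.93%), and for both against BMP4 5 and 2 (11.7% and 13.5%). With 4 libraries a side, 2 windows were separated upwards and 1 downwards by TNFa (1.82% and 2.62%), and 1 upwards and 0 downwards by BMP4 (0.777% and 0.853%). Those 4 windows are at Skil, Tgif1 (a pair) and Tgfb3.

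In the fit by group alone, no window of the cell type markers passed the adjusted threshold in any comparison. For the BMP4 effect 9 of 11 windows of chondrocyte markers (5 genes) were above 0 (median 0.52), against 50.7% of all windows. So were 4 of 4 of endothelial and muscle (median 0.65), 23 of 38 of osteoblast (0.18) and 3 of 4 of adipocyte markers (0.082). BMP4 separated 2 chondrocyte and 2 osteoblast windows upwards (0.777% of all windows). For the TNFa effect 2 of 11, 2 of 4, 16 of 38 and 2 of 4 were above 0 (49.9% of all windows). Their medians were −0.35, −0.23, −0.10 and −0.15. TNFa separated 1 chondrocyte and 2 osteoblast windows downwards (2.62%) and 1 osteoblast window upwards (1.82%). The summed level of the 11 chondrocyte windows was 769 and 942 CPM in untreated cells, 657 and 609 after TNFa, 1314 and 1094 after BMP4 and 1114 and 793 after both, and that of the 4 endothelial and muscle windows 409.7 and 512, 402 and 339, 533 and 673 and 591 and 490. Alpl of the osteoblast list, Matn1 of the chondrocyte list and Kdr, Myod1, Myog, Des and Myf5 of the endothelial and muscle list had no window in any list. The part of these markers in the members' values was not tested.

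**Figure D2:**
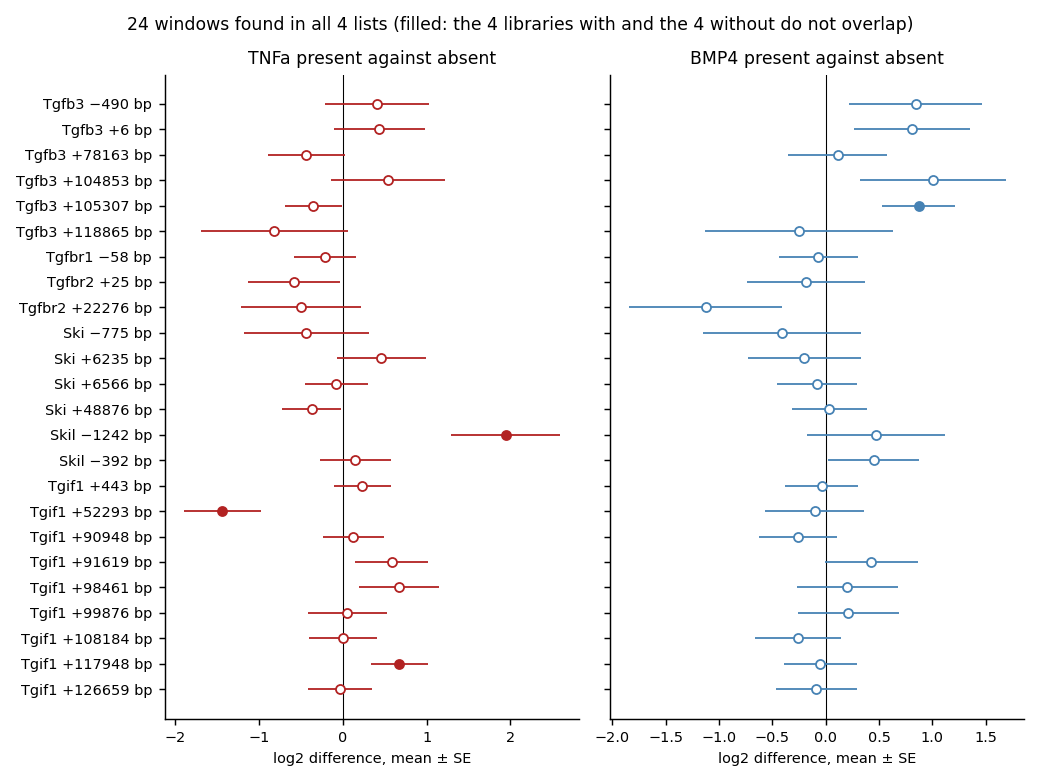
Log2 difference with its standard error (horizontal axis) for the 24 shared windows, with TNFa present against absent on the left and BMP4 present against absent on the right, each over 4 libraries a side. Filled points mark windows whose 4 libraries with and 4 without the factor do not overlap: Skil at 1242 bp, Tgif1 at 52293 bp and Tgif1 at 117948 bp for TNFa, and Tgfb3 at 105307 bp for BMP4.

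Among the ligands, Tgfb3 had the most regions (12, against 2 for Tgfb1 and 1 for Tgfb2), but 10 of them lay in introns of Ttll5. Within 10000 bp of a start Tgfb1 had 2 regions, Tgfb2 had 1 and Tgfb3 had 2. Tgfb1, the ligand most abundant in bone matrix, had no window annotated as promoter in any list. Its window in the first intron (chr7:25689353-25689477, 2413 bp downstream of the start, in a CpG island) stood at 28.5 and 20.5 CPM in untreated cells, 34.3 and 47.8 under TNFa and 15.5 and 39.6 under both, and was not called with BMP4. The TNFa libraries were both above the untreated ones, as in 8.88% of the 14416 tested windows. The log2 difference was 0.70 ± 0.62 (SE) and did not pass the test, and the libraries with both factors overlapped both pairs. The other Tgfb1 window, 289 bp downstream, was called in untreated cells only, at 19.3 and 21.3 CPM. Tgfb2 had 1 region, in its first exon, annotated as 5′ UTR (chr1:186705286-186705410). It was called in every list but moved by up to 89 bp between them, so it was not tested across the 4 groups. Its levels were 51.1 and 48.4 CPM in untreated cells, 24.03 and 46.6 under TNFa, 19.5 and 54.7 under BMP4 and 14.1 and 43.04 under both. Both TNFa libraries and both libraries given the 2 factors were below the untreated pair, as in 10.5% and 16.5% of the tested windows. The log2 differences were −0.54 ± 0.65 and −0.97 ± 0.69 (fits over the 2 groups) and did not pass the test. The BMP4 libraries lay on either side of the untreated pair. Replicate 1 held only 14 tags under TNFa, 17 under BMP4 and 10 under both. In its lowest library the window held 1.45 times the background libraries' tags at equal depth.

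The Tgfb3 promoter, the start of the ligand gene known for its part in palate and cartilage development, held 2 windows. The one at the start itself (6 bp downstream, chr12:86078973-86079097) stood at 49.4 and 29.3 CPM in untreated cells and 65.2 and 37.04 under TNFa. It stood at 128 and 31.8 under BMP4 and 138 and 62.3 under both. The window 490 bp upstream (chr12:86079469-86079593) stood at 46.1 and 24.9 CPM untreated, 120.1 and 34.6 under TNFa, 174 and 44.5 under BMP4 and 137 and 50.96 under both. In both windows the 2 libraries given both factors lay above the untreated pair, as in 16.8% of all windows. Of the 2 libraries given BMP4 alone, 1 lay near the untreated level. The BMP4 effect was 0.81 ± 0.54 (SE) at the start and 0.84 ± 0.62 upstream on the log2 scale, with unadjusted p of 0.174 and 0.211 in limma, so neither was larger than the spread between libraries. Replicate 1 was the higher in 4 groups at both windows, by a median of 0.95 and 1.56 (log2). The fit by group alone counts that offset as spread. Leaving out single libraries gave 0.32 to 1.28 at the start and 0.37 to 1.31 upstream.

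The tested windows far downstream of the Tgfb3 start lie in introns of Ttll5, a tubulin glutamylase gene. At 105307 bp (chr12:85973672-85973796, Ttll5 intron 29) the levels were 30.2 and 33 CPM in untreated cells, 24.03 and 15.5 under TNFa, 51.5 and 44.5 under BMP4 and 47.9 and 44.2 under both. All 4 libraries given BMP4 lay above all 4 without it, a separation in that direction seen in 0.777% of all windows, and the libraries of each group lay close together. The BMP4 effect was 0.87 ± 0.34 (unadjusted p = 0.0324, limma), and the difference of both factors from TNFa alone was 1.17 ± 0.48 (unadjusted p = 0.0398). Without replicate 2 of untreated cells and of BMP4 the BMP4 effect was 0.92. Its neighbour 454 bp away, in a long terminal repeat (chr12:85974126-85974250), stood at 35.2 and 17.6 CPM, 78.9 and 15.5, 112 and 21.6 and 113 and 52.1 in the same order of groups, with a BMP4 effect of 1.00 ± 0.68. There the libraries of a group differed more than the groups did.

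The Ttll5 windows 118865 bp (chr12:85960114-85960238) and 78163 bp (chr12:86000816-86000940) downstream showed no such order. The first stood at 60.3 and 139 CPM, 13.7 and 109.9, 19.5 and 179 and 21.1 and 84.9 in the 4 groups in turn, and not all of its recovered tag counts came out whole. The second stood at 43.6 and 83.6, 32.6 and 46.6, 34.3 and 97.3 and 39.5 and 57.8. Their BMP4 effects were −0.25 ± 0.88 and 0.11 ± 0.46. Of the 6 shared Tgfb3 windows, 5 had a BMP4 effect above 0, with a median of 0.83, against 50.7% and 0.0077 for all windows. Without replicate 2 of untreated cells and of BMP4, 4 of 6 were above 0, with a median of 1.01. These windows share a locus, 2 pairs of them start within 496 bp of each other, and they are not independent. A further 6 regions, 51301 to 70213 bp downstream in Ttll5 introns, were called in the BMP4 list only (2), in the list of both only (2), in those 2 lists (1) or in untreated cells and BMP4 (1). They were weak: their levels ran from 3.67 to 35.5 CPM.

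Both receptor genes had a window at the promoter in every list. Tgfbr1, the receptor kinase that phosphorylates the Smads, had the strongest of these (chr4:47353102-47353226, 58 bp upstream). It stood at 129 and 154 CPM in untreated cells, 106 and 103 under TNFa, 88.1 and 153 under BMP4 and 94.5 and 140.4 under both. The TNFa pair lay below the untreated pair (as in 10.5% of all windows), and the other groups overlapped it. The TNFa effect was −0.22 ± 0.37 and the BMP4 effect −0.07 ± 0.37, both smaller than their standard errors. A weak intergenic window 7287 bp upstream (chr4:47345873-47345997), in a LINE repeat, was called in the untreated and TNFa lists only, at 11.7 and 4.40 and at 15.4 and 3.58 CPM.

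Tgfbr2, the receptor that binds the ligand, had its promoter window 25 bp downstream of the start (chr9:116175276-116175400). Its levels were 20.9 and 75.5 CPM in untreated cells, 24.03 and 39.4 under TNFa, 21.7 and 77.6 under BMP4 and 19.7 and 26.05 under both. The high values were replicate 2 of untreated cells and of BMP4, the libraries that stand apart, and the other 6 libraries lay between 19.7 and 39.4. The TNFa effect of −0.59 ± 0.55 became 0.28 without those 2 libraries. The strongest Tgfbr2 window was in its first intron, 22276 bp downstream (chr9:116153025-116153149, in a DNA transposon remnant), at 98.9 and 274 CPM in untreated cells, 60.1 and 186 under TNFa, 24.03 and 186 under BMP4 and 38.1 and 71.3 under both. The pair given both factors lay below the untreated pair, as in 16.5% of all windows, with a log2 difference of −1.62 ± 1.01, and the BMP4 effect was −1.13 ± 0.72 (unadjusted p = 0.153, limma). The direction of BMP4 alone against none, −1.25 ± 1.01, turned to 0.17 without replicate 1 of BMP4. A neighbour in the same intron, 24414 bp downstream, was called in every list but both, at 24.3 and 100.5, 15.4 and 58.5 and 8.01 and 49.6 CPM, and 1 at 14316 bp in the untreated and TNFa lists at 8.38 to 16.1 CPM. All 3 shared receptor windows had effects of both factors below 0, with medians of −0.50 for TNFa and −0.18 for BMP4. Without replicate 2 of untreated cells and of BMP4 the 3 TNFa effects were all above 0 (median 0.28) and the 3 BMP4 effects all below it (median −0.22). Replicate 2 was the higher in 4 groups at both Tgfbr2 windows and in 3 at the Tgfbr1 window. With only replicate 1 left on the side without TNFa, against both with it, TNFa and replicate number are mixed in these 3 TNFa effects. In replicate 1 alone, Tgfbr2 at 25 bp had 20.9 and 21.7 CPM without TNFa and 24.03 and 19.7 with it. Tgfbr2 at 22276 bp had 98.9 and 24.03 against 60.1 and 38.1, and Tgfbr1 129 and 88.1 against 106 and 94.5. The part of replicate number was not tested.

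Skil had the window with the largest TNFa effect of the 24 over the 8 libraries. It lies 1242 bp upstream of the start (chr3:31093754-31093878, intergenic, in a CpG island). It stood at 25.1 and 3.67 CPM in untreated cells, 56.6 and 44.2 under TNFa, 40.1 and 6.36 under BMP4 and 54.98 and 74.7 under both. All 4 libraries given TNFa lay above all 4 without it, a separation in that direction seen in 1.82% of all windows. The TNFa effect was 1.94 ± 0.65 on the log2 scale (unadjusted p = 0.0162, adjusted p = 0.854, limma). TNFa alone differed from none by 2.07 ± 0.92, both factors from none by 2.42 ± 0.92 and both from BMP4 by 1.82 ± 0.92, while BMP4 alone differed from none by 0.60 ± 0.92. The very low values, 5 and 10 tags, were in replicate 2 of untreated cells and of BMP4. Without these 2 libraries the TNFa effect was 0.79, in the same direction, smaller by more than a factor of 1.5 and no longer the largest in size (Tgif1 at 52293 bp had −0.81), and leaving out single libraries gave 1.36 to 2.53. In its lowest library the window held 2.07 times the background libraries' tags at equal depth.

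The Skil promoter proper showed another order of groups. The window 392 bp upstream (chr3:31094604-31094728) stood at 35.2 and 42.5 CPM in untreated cells, 90.96 and 44.2 under TNFa, 102 and 61.03 under BMP4 and 80.4 and 44.2 under both. Each treated pair lay above the untreated pair, a separation seen in 8.88% of all windows for TNFa, 8.32% for BMP4 and 16.8% for both. The differences from none were 0.69 ± 0.60, 0.99 ± 0.60 and 0.60 ± 0.60, the smallest unadjusted p in limma being 0.136. A second promoter window, 85 bp upstream (chr3:31094911-31095035), was called in the BMP4 lists only, at 76.7 and 36.2 CPM under BMP4 and 84.6 and 86.1 under both. It has no value in the other lists, so no difference from them can be given. It starts 307 bp from the window before it.

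Ski, the founding member of the same corepressor family, had no window at which the 4 libraries with a factor lay apart from the 4 without it. Its promoter window 775 bp upstream (chr4:155223248-155223372) stood at 41.1 and 158 CPM in untreated cells, 37.8 and 88.4 under TNFa, 19.5 and 172 under BMP4 and 32.4 and 60.02 under both. In every group 1 library was well above the other, not all of the recovered tag counts came out whole, and the lowest library held 1.37 times the background libraries' tags at equal depth. The TNFa effect was −0.44 ± 0.74 and the BMP4 effect −0.41 ± 0.74. Without replicate 2 of untreated cells and of BMP4, its highest libraries, the TNFa effect turned to 0.78 and the BMP4 effect was −0.70. In the first Ski intron, the window 48876 bp downstream (chr4:155173597-155173721) stood at 39.4 and 25.7 CPM, 27.5 and 29.9, 32.04 and 46.4 and 22.6 and 27.2 in the 4 groups in turn. The pair given both factors lay below the pairs given either alone, by −0.19 ± 0.50 from TNFa and −0.60 ± 0.50 from BMP4. Such separations were seen in 8.93% and 13.5% of all windows. The window 6566 bp downstream (chr4:155215907-155216031) stood at 28.5 and 28.6, 24.03 and 23.9, 35.5 and 15.9 and 29.6 and 21.5 CPM. Its TNFa pair lay below the untreated pair (−0.23 ± 0.53), as in 10.5% of all windows. The window 6235 bp downstream (chr4:155216238-155216362) ranged from 7.63 to 38.9 CPM over the 8 libraries. The TNFa effects of these 3 were −0.37 ± 0.35, −0.08 ± 0.37 and 0.46 ± 0.53, and their BMP4 effects 0.03 ± 0.35, −0.08 ± 0.37 and −0.20 ± 0.53. The intergenic region 12917 bp upstream, in all lists but shifted by up to 83 bp, ranged from 13.7 to 62.0 CPM. TNFa cells had a second window there, 13207 bp upstream, at 70.4 and 53.8 CPM, and 1 weak intronic window 57830 bp downstream was called in untreated cells only.

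**Figure D3:**
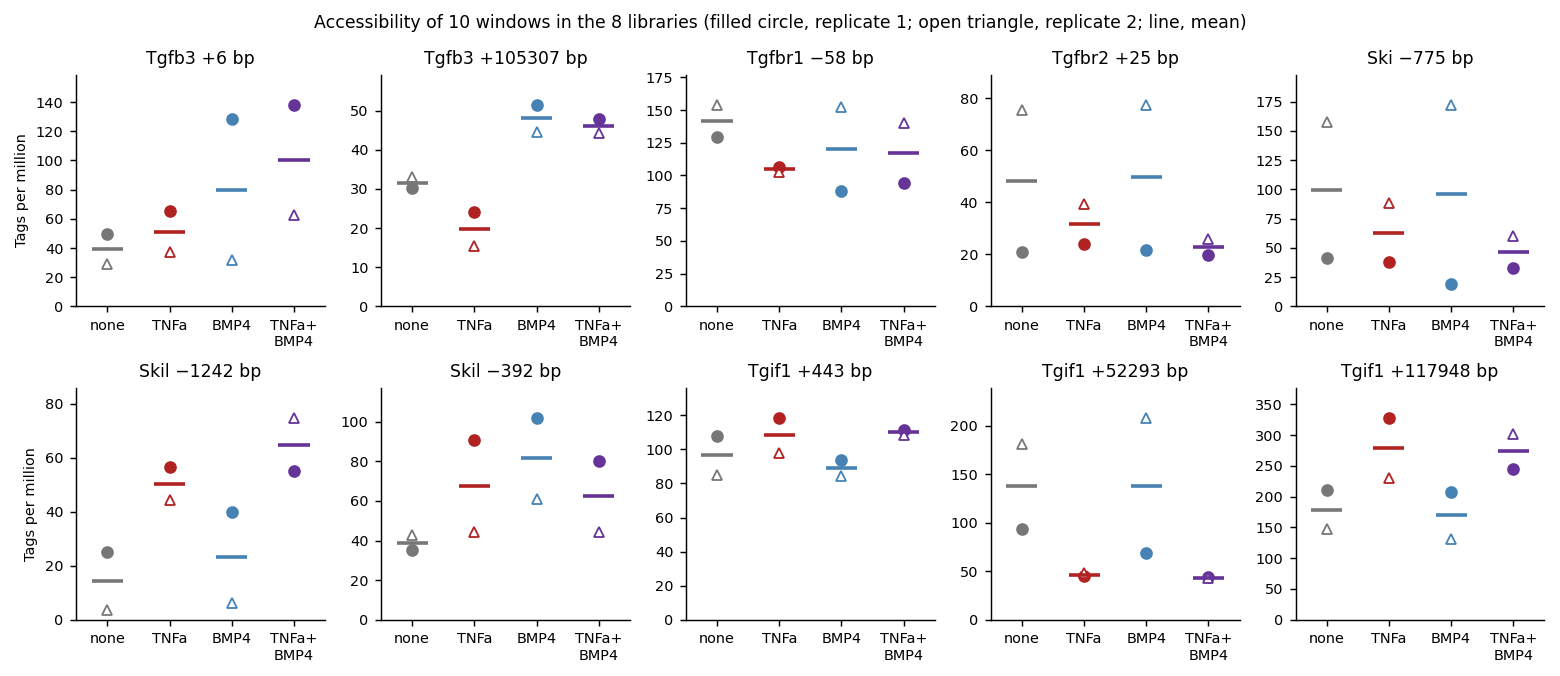
CPM (vertical axes, each from 0) in the 8 libraries for 10 windows of 6 genes (for each gene the shared window nearest the start, and the windows whose libraries are separated by a factor), with untreated, TNFa, BMP4 and both factors along each horizontal axis and a line at the group mean. The 4 libraries given TNFa lie above the other 4 at Skil 1242 bp upstream and below them at Tgif1 52293 bp downstream, and the 4 given BMP4 lie above the others at Tgfb3 105307 bp downstream.

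Tgif1 has several starts, and distances are from the nearest. Close to them, only the window at 443 bp had values in all 4 groups, and its effects of TNFa and BMP4 were smaller than their standard errors. The window in a CpG island 443 bp downstream of a start (chr17:70853027-70853151, first intron) stood at 108 and 85.1 CPM in untreated cells, 118 and 97.97 under TNFa, 93.8 and 84.5 under BMP4 and 111 and 109 under both. The TNFa effect was 0.23 ± 0.34 and the BMP4 effect −0.04 ± 0.34. The promoter window printed in part above (chr17:70851676-70851800 in untreated cells, 4 bp upstream) was not called with BMP4. It stood at 46.1 and 58.7 CPM untreated, 49.8 and 46.6 under TNFa and 77.5 and 41.9 under both. It moved by up to 88 bp between these lists, too far for a fit of both against none, so the levels are not of the same bases. Windows in the first intron 1459 and 801 bp downstream were called in all lists but both and in the untreated and BMP4 lists, at 31.0 to 70.6 and 37.7 to 61.7 CPM.

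The Tgif1 regions with the largest differences lay far downstream, in introns of Dlgap1, a gene of the postsynaptic scaffold in neurons. The window 52293 bp downstream (chr17:70794422-70794546, Dlgap1 intron 9) stood at 93.8 and 181 CPM in untreated cells, 44.6 and 47.8 under TNFa, 68.7 and 208 under BMP4 and 43.7 and 43.04 under both. All 4 libraries given TNFa lay below all 4 without it, as in 2.62% of all windows, and the 4 were within 43.0 to 47.8. The TNFa effect was −1.44 ± 0.46 (unadjusted p = 0.0132, adjusted p = 0.854, limma), and the difference was −1.46 ± 0.65 without BMP4 and −1.42 ± 0.65 with it. Without replicate 2 of untreated cells and of BMP4, its highest libraries, the effect was −0.81, and leaving out single libraries gave −1.84 to −1.04. A window starting 2927 bp away (chr17:70797349-70797473, in a SINE repeat of the same intron) was called in the pair of TNFa lists alone, at 56.6 and 64.5 CPM under TNFa and 57.8 and 80.4 under both.

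A second group of Dlgap1 windows, 90948 to 126659 bp from Tgif1 in intron 5, held the member window with the highest group mean in each treated group. In untreated cells its mean was 179 CPM, and that of Tgfbr2 at 22276 bp was 187. At 117948 bp (chr17:70728767-70728891) the levels were 211 and 147 CPM in untreated cells, 328 and 231 under TNFa, 208 and 131 under BMP4 and 245 and 302 under both. The 4 libraries given TNFa lay above the other 4, as in 1.82% of all windows. The TNFa effect was 0.68 ± 0.34 (unadjusted p = 0.0815, limma), and 0.38 without replicate 2 of untreated cells and of BMP4. TNFa cells alone had a further window starting 280 bp from it, at 177 and 207 CPM. At 108184 bp (chr17:70738531-70738655) the levels were 148 and 182 CPM untreated, 137 and 233 under TNFa, 104 and 213 under BMP4 and 109 and 173 under both, and the groups overlapped. The other 5 shared windows of this group were weaker. At 98461 bp the levels were 32.7 and 15.4, 48.1 and 34.6, 53.8 and 15.3 and 46.5 and 39.6 CPM, with a TNFa effect of 0.67 ± 0.47 that was −0.0039 without the 2 libraries that stand apart. At 91619 bp they were 31 and 11, 41.2 and 22.7, 35.5 and 20.98 and 42.3 and 37.4 CPM, with a TNFa effect of 0.58 ± 0.44 that was 0.070 without them. The windows at 90948, 99876 and 126659 bp ranged over the 8 libraries from 26.1 to 51.4, from 5.66 to 22.9 and from 16.0 to 32.4 CPM, and none had an effect of either factor larger than its standard error. Over the 15 shared windows of the 3 repressors, 10 had a TNFa effect above 0 with a median of 0.12 (8 and 0.032 without the 2 libraries that stand apart), and 6 a BMP4 effect above 0 with a median of −0.052.

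**Figure D4:**
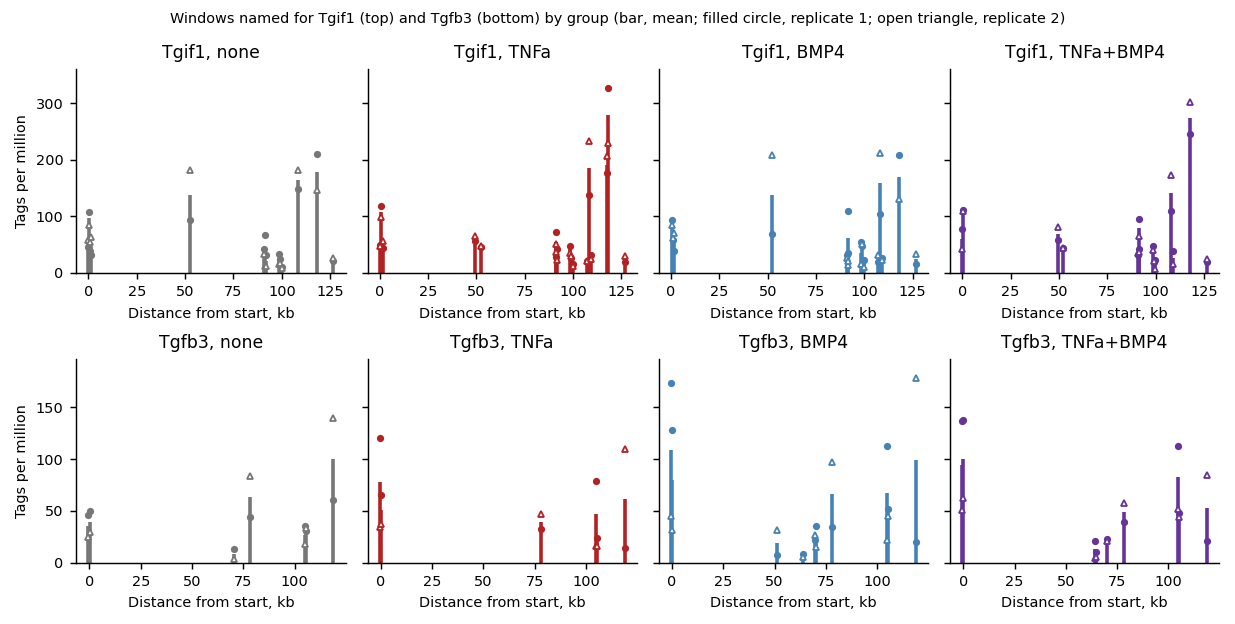
CPM (vertical axes, shared within a row) of the called windows named for Tgif1 (top) and Tgfb3 (bottom) against distance from the nearest start in kb, 1 panel per group. Bars are means of 2 libraries and symbols the libraries; at Tgif1 the window at 49.4 kb was called after TNFa and after both, where the window at 52.3 kb is lower than in the other panels.

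Beyond the 8 members, 111 shared windows at 47 other genes of the pathway were tested, and none passed the adjusted threshold. For the TNFa effect 5 were higher and 1 lower at an unadjusted p under 0.05 (5.41%, against 4.36% of all windows), all 6 among the 32 windows of genes for latency, activation and co-receptors. Ltbp2, a latent TGF-beta binding protein family member, had a window 13876 bp upstream (chr12:84890305-84890429) at 11.7 and 18.3 CPM untreated, 51.5 and 27.5 under TNFa, 16.02 and 13.3 under BMP4 and 40.9 and 31.7 under both, a TNFa effect of 1.22 ± 0.37 (unadjusted p = 0.0101, limma). Dcn encodes decorin, a matrix proteoglycan that binds TGF-beta, and its windows differed in direction. The one 22605 bp upstream had a TNFa effect of 1.08 ± 0.36, and the one in intron 7 (chr10:97516628-97516752) an effect of −0.97 ± 0.35, with 53.6 and 61.6 CPM untreated, 34.3 and 44.2 under TNFa, 111 and 135 under BMP4 and 50.8 and 39.6 under both. There the BMP4 libraries were the highest, and those with both factors were at the level of the untreated and TNFa cells. A window in the first intron of Smad3, a Smad that carries the TGF-beta signal, had a TNFa effect of −1.01 ± 0.45. It stood at 26.8 and 71.1 CPM untreated, 17.2 and 25.1 under TNFa, 25.2 and 59.8 under BMP4 and 18.3 and 18.1 under both. Its highest values are replicate 2 of untreated cells and of BMP4, the libraries that stand apart, and no value without them is given here.

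For the BMP4 effect 3 of the 111 windows were higher and 1 lower at an unadjusted p under 0.05 (3.60%, against 1.1% of all windows), the 3 all among the 45 windows of response genes. The promoter of Snai1, a transcription factor gene that TGF-beta induces (chr2:167538053-167538177, 80 bp upstream), stood at 62 and 112 CPM untreated, 54.9 and 57.3 under TNFa, 190.0 and 184 under BMP4 and 214 and 145 under both. All 4 libraries given BMP4 lay above the other 4, as in 0.777% of all windows, with an effect of 1.38 ± 0.37 (unadjusted p = 0.00536, limma). The window that was lower was near Fst, which encodes the activin antagonist follistatin, at −1.07 ± 0.47, and a window at Nedd4l, a ubiquitin ligase gene, had −0.89 ± 0.45. With both factors against none, a window 5987 bp upstream of Ccn2, a matricellular target of the pathway, differed by 2.64 ± 1.04, with 30.2 and 11 CPM untreated and 226 and 69.1 under both, and a window 1780 bp upstream of Zfyve9 (SARA, a Smad anchor) by 1.502 ± 0.60. The other windows of smallest p in a comparison were at Inhbb (−0.70 ± 0.56, TNFa against none), Col1a2 (−1.17 ± 0.67, both against none) and a second Smad3 intron window (−1.31 ± 1.00, both against TNFa). For both against BMP4 they were at Mmp14 (1.11 ± 0.51) and Postn (−1.83 ± 0.92). At Postn the BMP4 libraries stood at 17.2 and 71.8 CPM, the higher being replicate 2, which stands apart. For the interaction they were at Trim33 (0.90 ± 0.73), Acta2 (0.98 ± 0.86), Nedd4l (−1.01 ± 0.71) and the Dcn intron (−0.87 ± 0.70), none at an unadjusted p under 0.05. Over all 111 windows, 64 had a TNFa effect above 0 with a median of 0.057, and 54 a BMP4 effect above 0 with a median of −0.028.

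As a description over the 8 libraries, which share depth and replicate differences, the windows of other genes whose log2 levels followed a member's start most closely were found. For Tgfbr1 at 58 bp upstream they were the promoters of U2af1 (Pearson r = 0.987) and Ccng1 (0.980), with 111 of 14415 windows above 0.9. For Skil at 392 bp upstream they were the promoters of Nxn (0.964) and Tiparp (0.959), with 65 above 0.9. For Tgif1 at 443 bp they were windows near 4930555B11Rik and Pak3 (both 0.983). The Tgfb3 start went with windows near BC051665 (0.995) and Gm13056 (0.995), the Tgfbr2 start with Ccna2 (0.998) and Stk24 (0.997), and Ski at 775 bp upstream with Itga11 (0.996) and Nfatc2 (0.992). These last 3 members had 1021, 1130 and 1086 windows above 0.9.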

How the data were processed

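Accessible windows were analysed in 4 groups of 2 libraries. The tools named per the submitters' processing notes are HOMER 4.11, Bowtie2 2.5.1, Trimmomatic 0.39, Picard 2.25.1 and deepTools 3.5.1, with genome mm10. No source used here states a shift for the transposase. Per the file headers, the authors pooled each group's libraries, called peaks of 125 bp against 2 background libraries, and kept an adjusted p of 0.05 and a log2 fold of 1. The deposited lists also hold a peak score (not used), a log2 fold over background and its p-value. The 4 value columns are headed as tag counts per the file headers, yet what is deposited there is on a log2 scale (rlog), fitted list by list, so lists cannot be compared directly.

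Tag counts were solved from these values with 4 constants per list. Between 99.3% and 100% of values came out within 0.1 of a whole number, and 13.6% to 14.8% did with the constants moved by 5%. Windows overlapping by at least 63 bp were joined, each group keeping its own list's counts. Windows with the equivalent of 10 tags in 2 libraries and 15 in all were tested. Counts were scaled with TMM factors and tested as log2 values with a pseudocount of 2 in limma 3.58.1 (R 4.3.3, mean-variance trend, 8 libraries, group only), two-sided, with Benjamini-Hochberg adjustment over 14416 windows. An effect of TNFa or BMP4 is the mean of the groups with it minus the mean of those without, and the error after ± is its standard error. Log2 differences understate changes of low windows. Windows not in all 4 lists were fitted over the 2 groups concerned. Because the deposited unit is log2, no negative binomial test was run on the recovered counts. The scripts were tested on simulated data. CPM is per 1000000 TMM-scaled tags in tested windows. Every shared window of the 8 genes is given, with unshared ones within 10000 bp of a start. Of other pathway genes, up to 2 windows of smallest p per direction and comparison are named, apart from a gene not reported here. Alternatives in normalization, pseudocount, filter, matching, weights and libraries used are given at the end. The members and gene lists were chosen with earlier results of these data known.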

Additional observations from a re-analysis of the deposited data

How the results depend on the processing

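Normalization, pseudocount, filter, window matching, precision weights, use of the deposited values and leaving out libraries were varied. The count of windows past an adjusted p of 0.05 stayed at 0 in 180 of 181 comparisons under an alternative, which says nothing about stability; with the replicate number as a block, the TNFa effect had 119. Interaction aside, 44 of the members' values were at least as large as their standard error and 124 were smaller. Over their alternatives the 44 kept their direction 932 times and turned 8 times, in 6 values. Of the smaller values 99 turned under some alternative, so their direction is not settled. No member window was past the adjusted threshold under the block: the adjusted p (limma) was 0.0534 for the TNFa effect of Skil at 1242 bp upstream and 0.0701 for that of Tgif1 at 52293 bp, against 0.284 to 1 under the other alternatives for both. Same-numbered libraries deviated together (correlations of 0.105 to 0.764 over pairs of groups), but the labels tie a number to no shared culture. Of the 24 member windows, 8 were higher in replicate 1 of every group and 7 in replicate 2 of every group, against 23.6% and 22.5% of all windows.

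Leaving out single libraries gave 0 windows past the threshold in every comparison. It turned the direction in 4 of those 44. For Tgfb3 at 104853 bp, both against TNFa ranged from −0.055 (without TNFa replicate 2) to 2.18, and for Tgfbr2 at 22276 bp, BMP4 against none ranged from −2.68 to 0.17 (without BMP4 replicate 1). For Tgfbr2 at 25 bp, both against BMP4 ranged from −1.69 to 0.072 (without BMP4 replicate 2), and for Tgif1 at 91619 bp, TNFa against none ranged from −0.035 (without none replicate 2) to 1.36. Leaving out none replicate 2 and BMP4 replicate 2 together, chosen after seeing the data, gave 0.073 and −0.032 for the last 2. It also turned the TNFa effect of Tgfbr2 at 25 bp to 0.28 (−1.03 to −0.14 with single libraries left out) and that of Tgif1 at 98461 bp to −0.0039 (0.25 to 1.09). Only replicate 1 then remains without TNFa, against both replicates with it, so TNFa and replicate number are mixed in these values. The cause of the turns was not tested. Requiring an adjusted p under 0.001 against background left 19 of 38 member windows in untreated cells (50%, against 49.5% of all windows), 27 of 39 in the TNFa list (69.2% against 50.8%), 19 of 38 in the BMP4 list (50% against 37.8%) and 22 of 36 with both (61.1% against 53.8%). An overlap of 90% gave 77 regions, 11 of them in all 4 lists. Low tag counts, such as 5 and 10 tags at Skil 1242 bp upstream, carry the counting error of so few tags.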
